A study of Mus musculus with 9 samples.

Results

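The proteasome subunit genes were taken as every probe set whose platform annotation gave exactly 1 symbol made of Psm, a letter from a to d and a number, with the immune-inducible Psmb8, Psmb9 and Psmb10 left out. The rule used names and no measured value, and it gave 64 of the 22690 probe sets, for 35 genes. They fell into 8 core alpha genes (16 probe sets), 7 core beta genes (11), 6 ATPase genes (11), 3 base genes without ATPase activity (5), 8 lid genes (17) and 3 base assembly chaperones (4). A gene is given at its brightest probe set unless another is named, all levels and differences are on the log2(intensity + 1) scale, and differences of dim probe sets are understated by the added 1. Of the 64 probe sets, 51 reached the median probe set level of 5.93 and 13 did not. The 5 with a mean at or below 4.25, the highest of 15 bacterial control probe sets, included Psma8, the alpha subunit known from testis, at 3.65 to 4.36 over the 9 arrays. Psmb11, the beta subunit known from thymus, was not analysed here.

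The proteasome is the enzyme complex that degrades proteins marked with ubiquitin. Its barrel-shaped core is built of outer alpha rings, which gate entry, and inner beta rings, of which Psmb5, Psmb6 and Psmb7 hold the cutting sites. A regulatory particle sits on the core: the ATPases of its base unfold the substrate, other base subunits bind ubiquitin and its carriers, and the lid, with the protease Psmd14, removes the ubiquitin chain. In many cells the subunit genes are switched on together by the transcription factor Nfe2l1 when proteasome activity falls short.

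The study used 3 cell lines with 3 arrays each. SV5-NN4 is a stable clone of mouse NIH 3T3 fibroblasts that carries the SV40 large T antigen together with introduced wild-type N-ras, SV5 is a stable clone with the SV40 large T antigen alone, and NIH 3T3, listed as wild type, is the parent line. Every line grew in medium with calf serum, and the series asks how added wild-type N-ras changes cells transformed by SV40. SV5-NN4 and SV5 were each 1 clone, so an effect of the added gene cannot be told apart from a difference between clones. The labels do not say whether replicate arrays came from separate cultures, so p-values speak only of variation among arrays, which could be technical.

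Median intensities were 56.2 to 62.4 per array, and fewer cells with a transcript cannot be told apart from less RNA per cell. Upper quartiles were less level, at 185, 181 and 240 in SV5-NN4, 185, 187 and 235 in SV5 and 174, 165 and 219 in NIH 3T3, the lowest line in each replicate number. The AFFX-BioB control averaged 491, 448 and 657 on the replicate 2 arrays of SV5-NN4, SV5 and NIH 3T3, and 92.2 to 251 on the other arrays. The part of these array differences in the results was not tested. Of 8 fibroblast markers, 7 reached the median level in SV5-NN4, 7 in SV5 and 8 in NIH 3T3, the exception being Lum. Krt5, Cd14 and Cd3e reached it in every line too. The other measured epithelial, haematopoietic and endothelial markers stayed below it in every line, with means of 3.54 to 5.60. The markers' summed levels in SV5-NN4, SV5 and NIH 3T3 were 84.6, 89.9 and 88.7 for fibroblasts, 24.1, 23.9 and 24.4 for 5 epithelial markers, 21.8, 21.7 and 21.5 for 4 haematopoietic markers and 17.1, 17.6 and 17.9 for 4 endothelial markers. For Nras, differences in SV5-NN4 against SV5 were 0.06, 0.28 and 0.05 at its 3 probe sets (adjusted p = 0.96, 0.55 and 0.98), and the sources used here do not say whether they cover the introduced sequence. Equal-numbered arrays of different lines deviated together, so differences were taken with the replicate number as a block. Replicate number held 77.3% of the variance of the member probe sets and line 14.9%, against 61.1% and 21.8% over all probe sets.

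The subunit genes as a body were highest in SV5-NN4. Their mean over 35 genes was 9.11, 8.89 and 9.97 on the SV5-NN4 arrays of replicates 1, 2 and 3, against 8.79, 8.65 and 9.40 on the SV5 arrays and 8.78, 8.24 and 9.50 on the NIH 3T3 arrays. Within each replicate number the SV5-NN4 array was the highest for the members together and for each of the 6 classes, although the ranges of the lines overlapped, with replicate 3 the highest array of every line. NIH 3T3 replicate 2 was the lowest array. The mean over all 12393 genes moved little, between 6.56 and 6.66 on the 9 arrays. SV5-NN4 was the highest line in all replicates for 29 of the 64 member probe sets, or 45.3%, and for 8.93% of all probe sets.

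**Figure D1:**
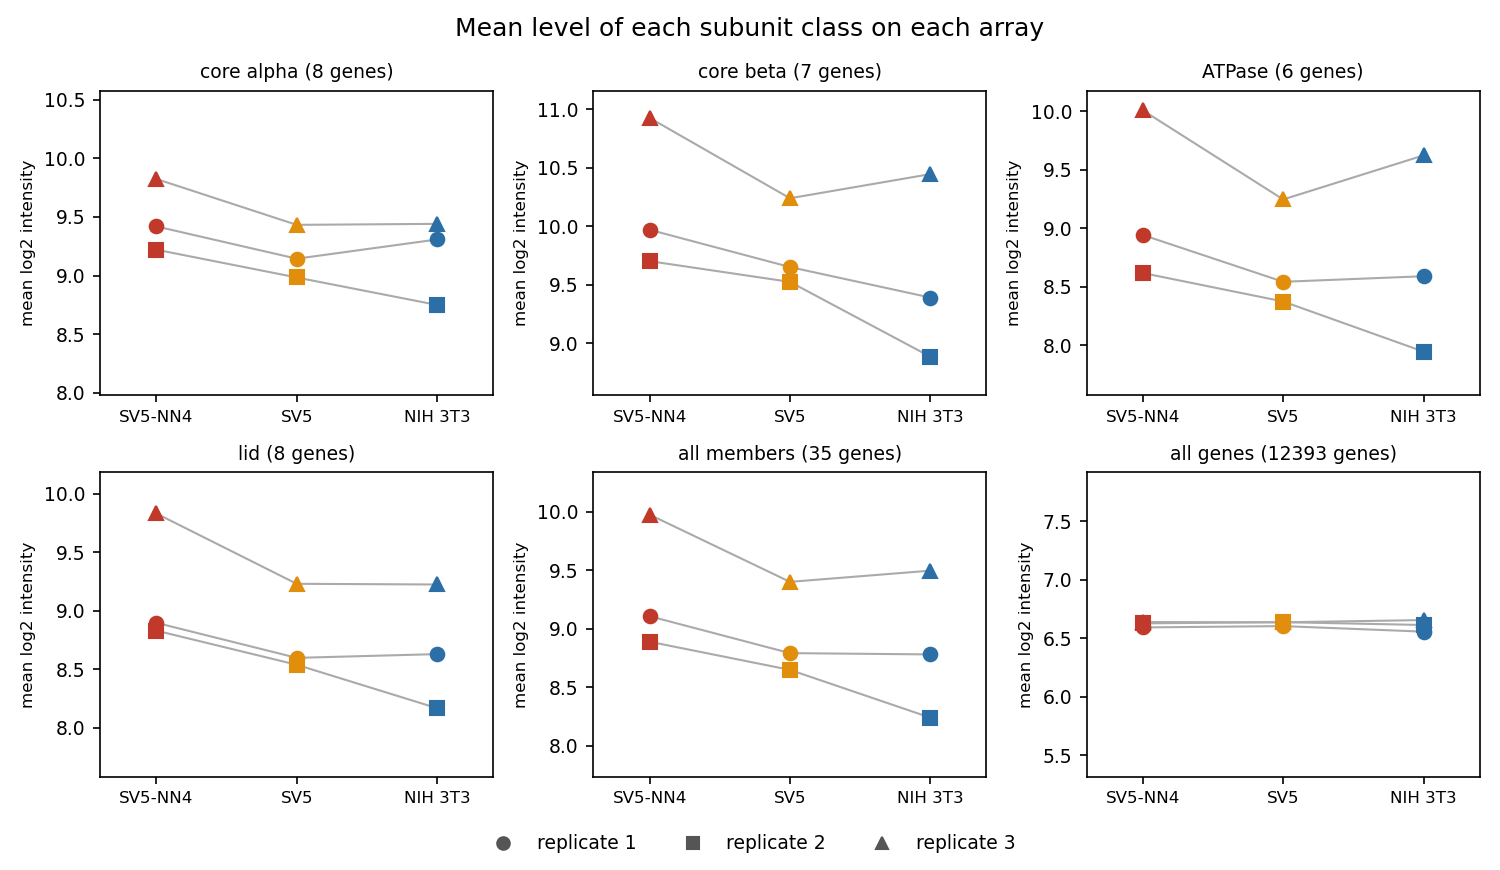
Mean log2 intensity of the genes of each class (vertical axis) on each array, by line (horizontal axis: SV5-NN4, SV5, NIH 3T3); each point is 1 array, its shape gives the replicate number and grey lines join arrays of equal number. The SV5-NN4 point is the highest of its replicate number for core alpha, core beta, ATPase, lid and all 35 member genes, while the mean over 12393 genes stays between 6.56 and 6.66.

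The first comparison asks what differed between cells that carry added wild-type N-ras and their SV40-transformed counterparts. In SV5-NN4 against SV5 the differences of the 64 member probe sets ran from -0.35 to 0.86 with a median of 0.27, and 56 were above 0, while the median over all probe sets was 0.01 and 51.9% were above 0. No member passed limma's test at an adjusted p of 0.05, where 0.864% of all probe sets did (0.309% higher, 0.555% lower), and none passed without the replicate block (0.0837% of all). At an unadjusted p of 0.05, 22 members, or 34.4%, were on the higher side and 0 on the lower, against 6.64% and 6.34% of all probe sets. Without the block 4 members were on the higher side and 0 on the lower, against 2.2% and 2.06% of all probe sets. Among the 11345 probe sets at or above the median level, the higher share was 10.8% with the block. Without it, 418 of the 11345 were on the higher side. SV5-NN4 exceeded SV5 in 3 of 3 pairs for 33 members (20.9% of all probe sets) and was below it in all pairs for 2 (19.6%). All SV5-NN4 arrays lay above all SV5 arrays for 9 members and below them for 0, against 4.21% and 3.72% of all probe sets. The members' median was 0.19, 0.18 and 0.40 in the pairs of replicates 1, 2 and 3.

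**Figure D2:**
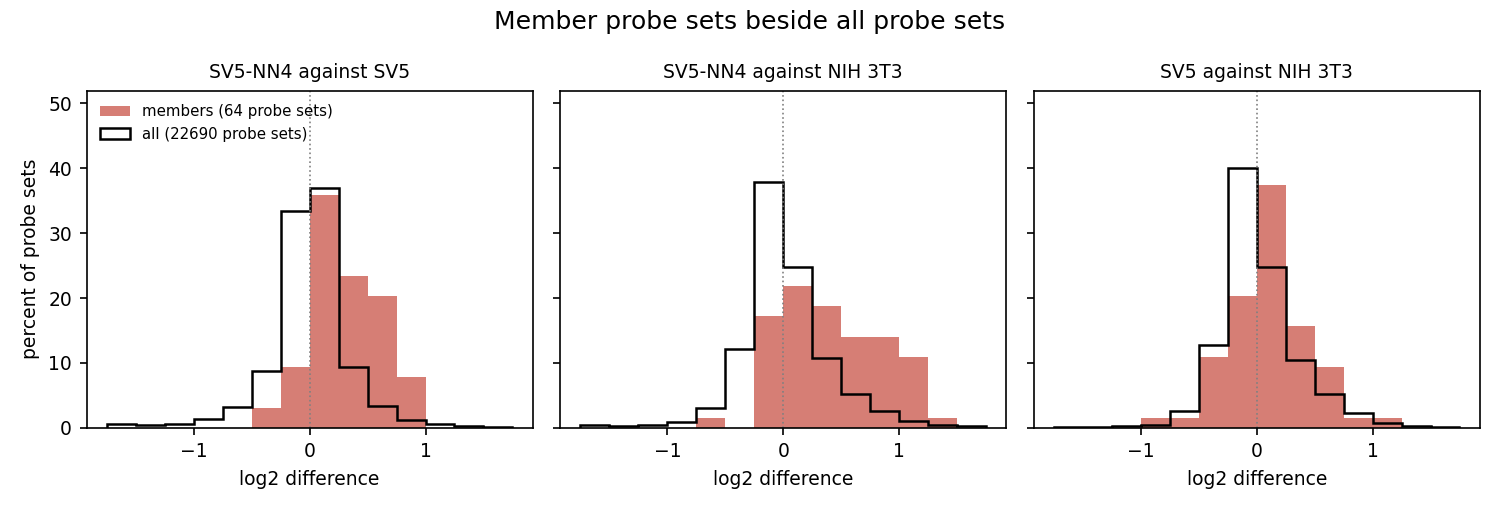
Share of probe sets, in percent (vertical axis), by log2 difference between lines (horizontal axis, values beyond the axis placed in the end bins), for the 64 member probe sets (filled) and all 22690 probe sets (outline). The members' medians of 0.27 and 0.38 in the comparisons with SV5-NN4 lie right of the medians of all probe sets, 0.01 and -0.03, and the median of 0.09 in SV5 against NIH 3T3 lies nearer to that of all, -0.04.

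The core alpha genes had a median difference of 0.25 between SV5-NN4 and SV5, with 8 of 8 above 0 and 3 at an unadjusted p under 0.05. Psma7, an alpha ring subunit, gave 9.28, 10.04 and 10.40 in SV5-NN4, against 8.56, 9.63 and 9.49 in SV5 and 8.87, 9.41 and 9.72 in NIH 3T3. SV5-NN4 was the higher in every pair although its lowest array fell inside the SV5 range, and the difference was 0.68 ± 0.15 (SE; adjusted p = 0.093). Its other probe set gave 0.60. Psma6, another ring subunit, gave 11.41, 11.46 and 11.68 in SV5-NN4, against 11.27, 11.00 and 11.20 in SV5, which do not overlap, for a difference of 0.36 ± 0.12 (adjusted p = 0.27). Psma4 differed by 0.49 (adjusted p = 0.37), whereas Psma2, Psma3, Psma5 and Psma8 differed by 0.11 to 0.15.

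Among the core beta genes, whose median was 0.45 with 6 of 7 above 0, the 3 genes of the cutting sites were each higher in 3 of 3 pairs. Psmb6, the caspase-like subunit, gave 10.01, 9.85 and 10.54 in SV5-NN4, against 9.42, 9.39 and 9.51 in SV5, with no overlap, a difference of 0.69 ± 0.25 (adjusted p = 0.29). Psmb5, the chymotrypsin-like subunit that bortezomib binds, gave 9.47, 9.60 and 10.79 in SV5-NN4, against 9.02, 9.42 and 10.07 in SV5, which overlap, a difference of 0.45 ± 0.16 (adjusted p = 0.29). Psmb7, the trypsin-like subunit, gave 9.91, 9.24 and 11.75 in SV5-NN4, against 9.09, 8.92 and 10.99 in SV5, also overlapping, a difference of 0.64 ± 0.23 (adjusted p = 0.30). None of the catalytic genes passed the test. The structural subunit Psmb3 differed by 0.65, while Psmb1 differed by -0.02 and Psmb2 by 0.11.

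The ATPase genes had a median of 0.53, with 6 of 6 above 0 and 5 higher in every pair. Psmc2 gave 11.75, 12.14 and 11.86 in SV5-NN4, against 11.33, 11.56 and 11.12 in SV5 and 11.62, 11.82 and 11.54 in NIH 3T3. The SV5-NN4 and SV5 arrays did not overlap, and the difference was 0.58 ± 0.12 (adjusted p = 0.083). Psmc4 gave 8.11, 8.23 and 9.10 in SV5-NN4, against 7.80, 7.89 and 7.89 in SV5, again apart, with a difference of 0.62 ± 0.22 (adjusted p = 0.27). Psmc5 differed by 0.52, Psmc3 by 0.55, Psmc6 by 0.28 and Psmc1 by 0.26. The base genes without ATPase activity differed less, with Psmd2, a scaffold that receives ubiquitin carriers, at 0.34, the ubiquitin receptor Psmd4 at 0.31 and the scaffold Psmd1 at 0.15, and 0 of 3 at an unadjusted p under 0.05.

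The lid genes had a median of 0.51, 7 of 8 lay above 0, and 6 had an unadjusted p under 0.05. Psmd13 gave 7.12, 6.51 and 9.13 in SV5-NN4, against 6.41, 6.04 and 7.85 in SV5, a difference of 0.82 ± 0.19 that was positive in every pair (adjusted p = 0.11) although the lines overlapped. Psmd11, a lid subunit that helps hold lid and base together, gave 12.33, 12.29 and 12.32 in SV5-NN4, against 11.92, 11.81 and 11.89 in SV5 and 12.01, 11.84 and 12.01 in NIH 3T3. Its SV5-NN4 arrays lay above those of both other lines, with a difference of 0.44 ± 0.11 from SV5 (adjusted p = 0.13). Psmd14, the deubiquitinating protease, gave 11.01, 10.23 and 10.93 in SV5-NN4, against 10.64, 9.81 and 10.61 in SV5, overlapping, with a difference of 0.37 ± 0.15 (adjusted p = 0.36). Psmd3, Psmd7 and Psmd12 differed by 0.58, 0.58 and 0.63.

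Psmd8, also a lid subunit, was the 1 gene below SV5 in every pair. It gave 7.64, 7.16 and 8.88 in SV5-NN4, against 7.87, 7.62 and 9.10 in SV5, lower in 3 of 3 pairs with a difference of -0.31 ± 0.18 (adjusted p = 0.60). Psmd6 differed by 0.07, and by -0.35 at its other probe set. Among the base assembly chaperones, which dock on the ATPases before the base meets the core, Psmd5 had the lowest p of all members in this comparison. It gave 9.06, 8.69 and 9.40 in SV5-NN4, against 8.35, 7.94 and 8.43 in SV5, with no overlap, a difference of 0.81 ± 0.14 that just missed the threshold (adjusted p = 0.059). Psmd9 and Psmd10 differed by 0.36 and 0.06.

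A measure of RNA integrity moved with the lines as well. The log2 difference between 3' and 5' probe sets of Actb was 4.07, 4.63 and 3.66 on the SV5-NN4 arrays, against 3.73, 4.33 and 2.42 on the SV5 arrays and 4.26, 4.43 and 5.06 on the NIH 3T3 arrays. For Gapdh it was 2.66, 3.52 and 3.05 on the SV5-NN4 arrays, against 2.45, 3.03 and 2.36 on the SV5 arrays and 2.65, 2.99 and 5.21 on the NIH 3T3 arrays. Both were higher in SV5-NN4 than in SV5 in every pair, and both were lowest in SV5 replicate 3. On that array the 35 members stood at -0.22 from their mean over the replicate 3 arrays. By class the values there ran from -0.38 for the ATPase genes to -0.07 for the base without ATPase activity. Both measures were highest in NIH 3T3 replicate 3, where the members stood at -0.13. The part of RNA integrity in the result was not tested.

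**Figure D3:**
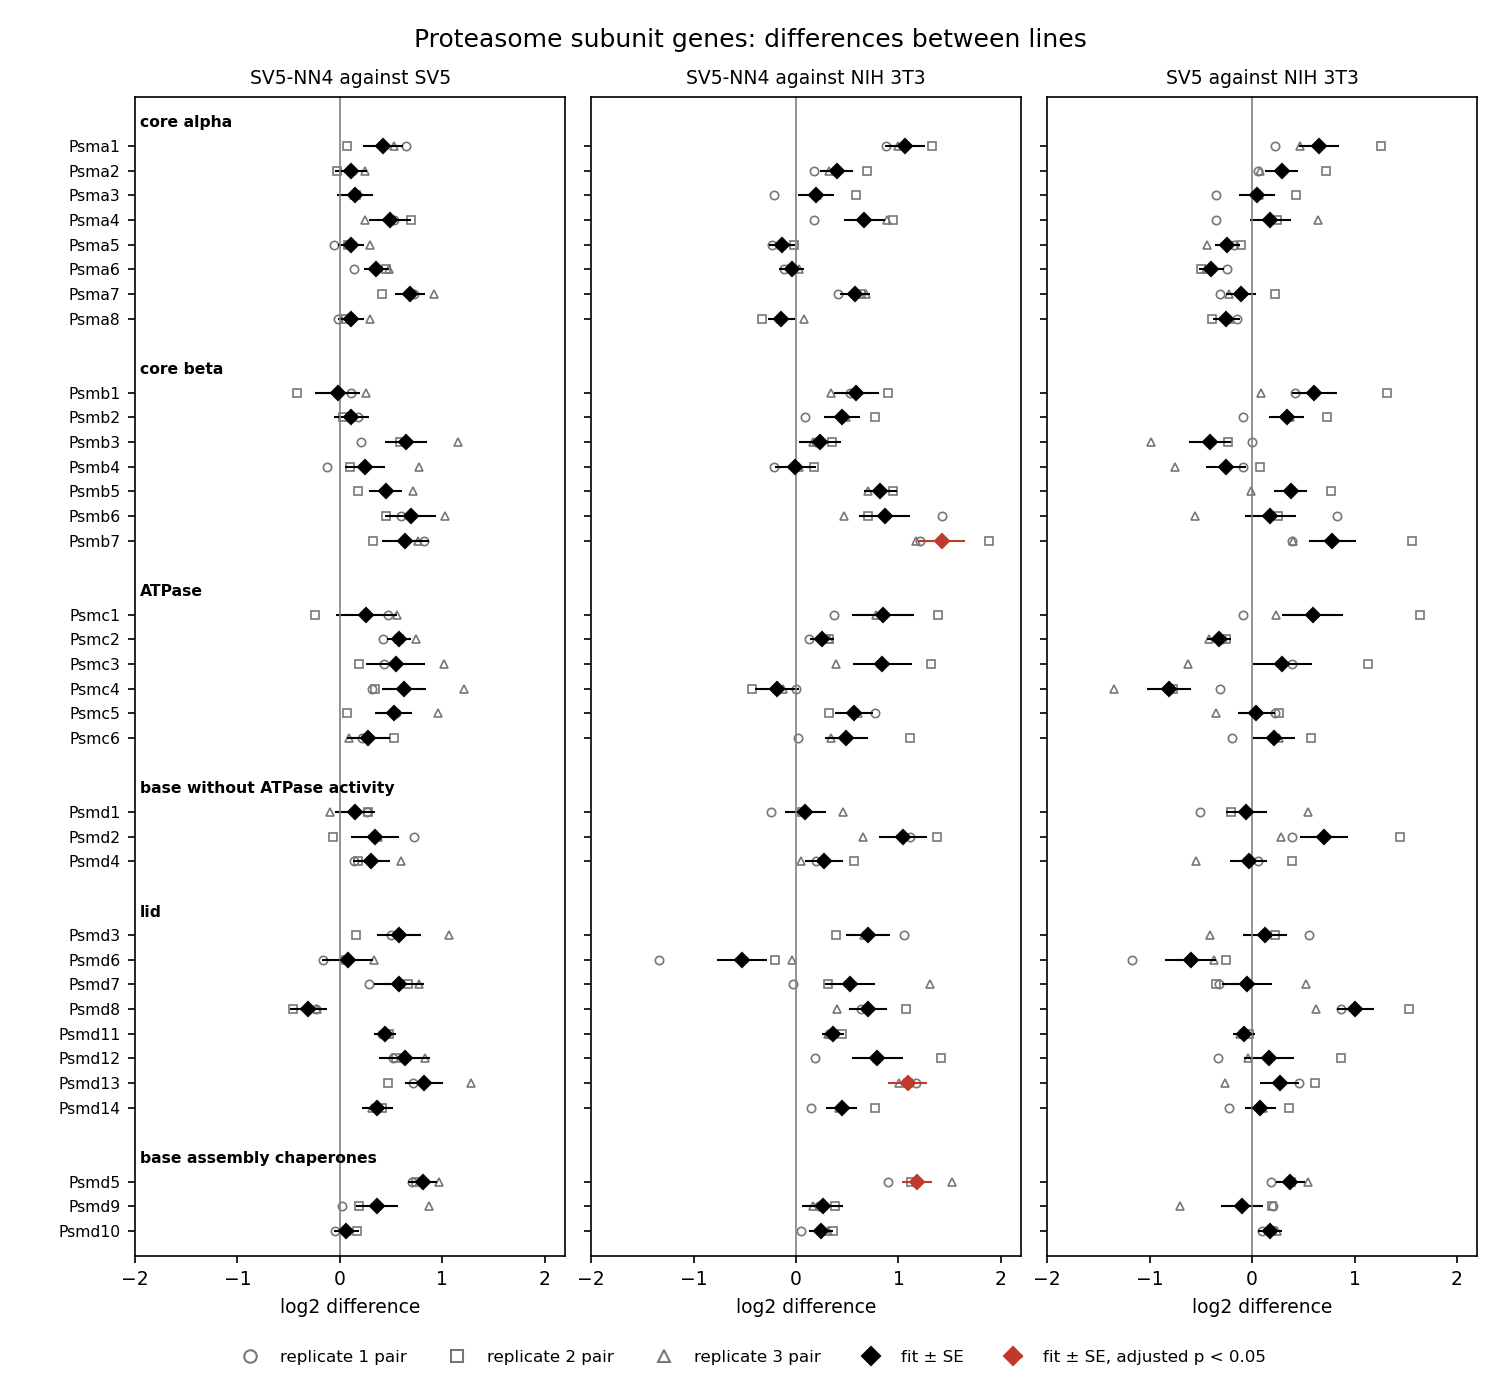
Log2 difference between lines (horizontal axis) for each of 35 genes (vertical axis, grouped by class) in 3 comparisons; diamonds with bars are the limma difference ± SE, red where the adjusted p is under 0.05, and open symbols are the differences of the 3 pairs of equal-numbered arrays. In SV5-NN4 against SV5, 33 of 35 genes lie above 0 and none is red; in SV5-NN4 against NIH 3T3, Psmb7, Psmd5 and Psmd13 are red; in SV5 against NIH 3T3, 21 lie above 0 and 14 below.

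SV5-NN4 against NIH 3T3 sets the line with both added genes beside its parent, and it shares the SV5-NN4 arrays with the first comparison. The member probe sets had a median difference of 0.38 and a range from -0.53 to 1.42, with 52 above 0, against a median of -0.03 and 44.9% above 0 over all probe sets. Of the 64 members, 4 rose at an adjusted p under 0.05 and 0 fell, where 1.65% of all probe sets passed (1.14% higher, 0.516% lower). At an unadjusted p of 0.05 the count was 31, or 48.4%, on the higher side and 0 on the lower, against 10% and 7.1% of all probe sets. Without the block 5 were on the higher side and 0 on the lower, against 2.87% and 1.82% of all. Among the 11345 probe sets at or above the median level, the median was 0.07 and 57.3% were above 0. Of these, 17.6% were on the higher side with the block, and 568 of 11345 without it. Differences were positive in 3 of 3 pairs for 39 members (16.9% of all) and negative in all for 2 (19%). The lines did not overlap for 4 members on the higher side and 2 on the lower, against 3.34% and 3.11% of all probe sets. The class medians over genes were 0.29 for core alpha, 0.59 for core beta, 0.53 for ATPase, 0.27 for the base without ATPase activity, 0.61 for the lid and 0.26 for the base assembly chaperones.

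Psmd5 had the lowest p of the members. Against its 9.06, 8.69 and 9.40 in SV5-NN4, the NIH 3T3 arrays gave 8.17, 7.56 and 7.88, so the lines did not overlap. The difference was 1.18 ± 0.14, a 2.27-fold rise (adjusted p = 0.020, higher in 3 of 3 pairs). The catalytic subunit Psmb7 gave 8.70, 7.36 and 10.59 in NIH 3T3, each below the SV5-NN4 array of its number although the lines overlapped, and rose by 1.42 ± 0.23, or 2.68-fold (adjusted p = 0.041). The lid subunit Psmd13, at 5.95, 5.42 and 8.12 in NIH 3T3, rose by 1.09 ± 0.19, or 2.13-fold (adjusted p = 0.046), with pair differences of 1.17, 1.09 and 1.01. Its other probe set gave 0.90 (adjusted p = 0.24).

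The other probe set that rose measures Psmc2 and is not the brightest of that gene. It gave 9.91, 9.30 and 10.62 in SV5-NN4, against 8.65, 7.99 and 9.82 in NIH 3T3, a rise of 1.12 ± 0.19 (adjusted p = 0.042). The brightest Psmc2 probe set differed by 0.26 (adjusted p = 0.33), so the call for this ATPase depends on the probe set. These calls rest on the replicate block: without it no member passed (0.0793% of all probe sets did), and Psmd5 had an adjusted p of 0.37. Leaving out 1 array at a time, Psmd5 passed in 5 of 9 fits, Psmb7 in 2, Psmd13 in 2 and this Psmc2 probe set in 3.

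Of the genes not called, Psma1 and Psmb5 came closest to the threshold at their brightest probe sets, and the others lay further from it. A second Psmb3 probe set lay nearer than Psmb5, at 1.09 (adjusted p = 0.051), while the brightest of Psmb3 differed by 0.24 (adjusted p = 0.61). Psma1, an alpha ring subunit, gave 9.34, 6.93 and 9.78 in SV5-NN4, against 8.69, 6.85 and 9.25 in SV5 and 8.46, 5.60 and 8.78 in NIH 3T3, with replicate 2 far below the others in every line. SV5-NN4 exceeded NIH 3T3 in every pair, by 1.07 ± 0.19 (adjusted p = 0.0501), although the ranges overlapped. Psmb5 gave 8.65, 8.65 and 10.08 in NIH 3T3, below the SV5-NN4 arrays pair by pair, with a difference of 0.82 ± 0.16 (adjusted p = 0.060). Psmb6 gave 8.58, 9.14 and 10.07 in NIH 3T3, a difference of 0.87 ± 0.25 (adjusted p = 0.14). Psmd2 differed by 1.05 (adjusted p = 0.081) and Psmd14 by 0.45 (adjusted p = 0.19), the NIH 3T3 arrays of Psmd14 reading 10.86, 9.45 and 10.51. Psmc1, Psmc3, Psmb1, Psma4, Psmd3, Psmd12 and Psmd8 differed by 0.59 to 0.85 with adjusted p from 0.11 to 0.24. Some members lay on the other side: Psmd6 differed by -0.53 (adjusted p = 0.33) and Psma5 by -0.14 (adjusted p = 0.64), both lower in 3 of 3 pairs, and Psmc4 by -0.19 (adjusted p = 0.72). Each of these genes also had a probe set on the higher side, at 0.11 for Psmd6, 0.17 for Psma5 and 0.55 for Psmc4.

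**Figure D4:**
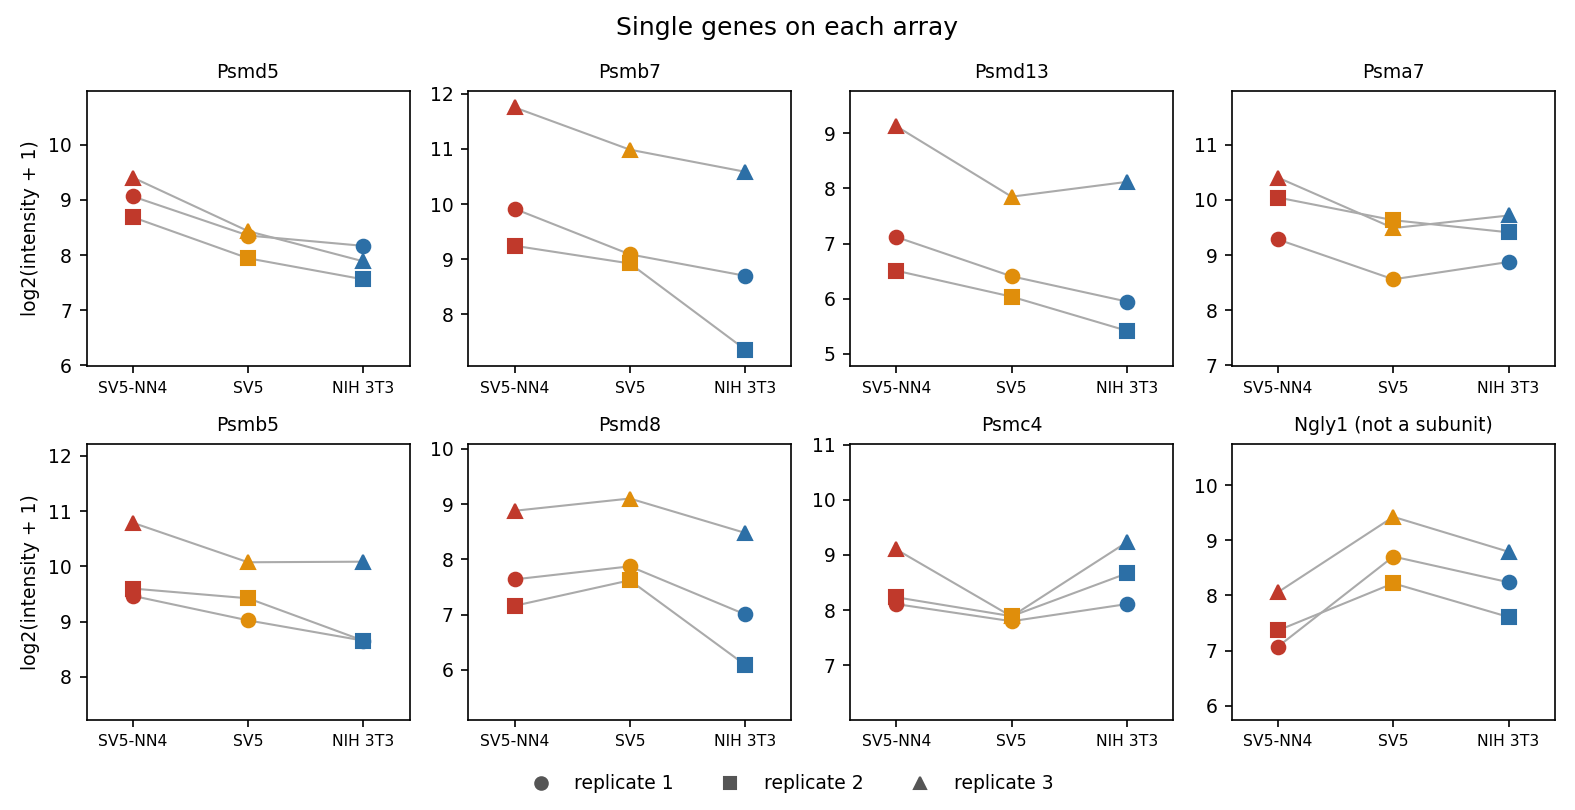
Log2(intensity + 1) of 7 member genes and of Ngly1, which is not a subunit (vertical axes, each spanning the same length), on each array by line (horizontal axis: SV5-NN4, SV5, NIH 3T3); shapes give the replicate number and grey lines join equal numbers. Psmd5 in SV5-NN4 (8.69 to 9.40) lies above both other lines, Psmd8 is lower in NIH 3T3 than in SV5 in every pair, Psmc4 is lowest in SV5, and Ngly1 in SV5-NN4 (7.07 to 8.06) lies below SV5 (8.22 to 9.43).

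SV5 against NIH 3T3, the comparison of SV40-transformed cells with their parent, shares arrays with both others, and here positive and negative differences of the subunit genes were mixed. The median difference was 0.09 over 64 probe sets, from -0.81 to 1.01, with 42 above 0, against -0.04 and 43.7% above 0 over all probe sets. With limma 0 members passed, where 0.0617% of all probe sets did (0.0441% higher, 0.0176% lower), and without the block 0 passed as well (0.00441% of all). At an unadjusted p of 0.05 there were 8 on the higher side and 4 on the lower, against 8.56% and 5.65% of all, and without the block 0 and 3, against 1.82% and 1.03%. Among all probe sets at or above the median level, where most members lie, the median was 0.07 and 57.7% were above 0. With the block, 15.2% of these were on the higher side at that p, beside 12.5% of the members. Differences were positive in every pair for 11 members (12.9% of all) and negative for 9 (17.4%). The pairs' medians were 0.00, 0.32 and -0.04, the highest being that of the pair that holds NIH 3T3 replicate 2. Without NIH 3T3 replicate 2 the median was 0.01.

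Psmd8 had the lowest p, giving 7.87, 7.62 and 9.10 in SV5, against 7.00, 6.09 and 8.48 in NIH 3T3, overlapping but higher in every pair by 1.01 ± 0.18 (adjusted p = 0.12). Psmb7 differed by 0.78 ± 0.23 (adjusted p = 0.21) and Psma1 by 0.65 ± 0.19 (adjusted p = 0.22), both positive in 3 of 3 pairs. Psmc4 lay the other way, at 7.80, 7.89 and 7.89 in SV5, against 8.11, 8.67 and 9.23 in NIH 3T3, apart, with a difference of -0.81 ± 0.22 (adjusted p = 0.18). Psma6 was also apart and lower, at 11.27, 11.00 and 11.20 in SV5, against 11.52, 11.50 and 11.64 in NIH 3T3, a difference of -0.40 ± 0.12 (adjusted p = 0.23). Neither direction held over the gene's probe sets: a second Psmc4 probe set gave 0.24, and a bright Psma6 probe set whose name ends in plain _at gave 0.40. Members apart in this direction numbered 4, and in the higher direction 0, against 2.39% and 2.16% of all probe sets. Psmb5 differed by 0.37, Psmb6 by 0.18 and Psmd14 by 0.08, and each of these had pair differences of both signs.

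Probe sets of the same gene did not always give the same answer, and 17 member genes have more than 1. Both signs occurred within 6 of these genes in SV5-NN4 against SV5, within 8 in SV5-NN4 against NIH 3T3 and within 13 in SV5 against NIH 3T3. In SV5-NN4 against NIH 3T3 the 6 Psmd11 probe sets ran from -0.24 to 1.04 and the Psmb4 pair gave -0.01 and 0.79. In SV5-NN4 against SV5 the Psmd11 sets ran from 0.08 to 0.86 and the Psmb4 pair gave 0.06 and 0.25. In SV5 against NIH 3T3 the Psmd11 sets ran from -0.32 to 0.18 and the Psmb4 pair gave -0.25 and 0.73. Names that end in _x_at or _s_at mark probe sets whose probes can bind other transcripts. The brightest probe sets of Psmc2, Psma6 and Psmb4 end in _x_at and that of Psmd11 in _s_at, which bears on the values given for these genes. The 8 members that end in _x_at had medians of 0.22, 0.19 and -0.07 in SV5-NN4 against SV5, SV5-NN4 against NIH 3T3 and SV5 against NIH 3T3, and the 36 that end in plain _at had 0.25, 0.54 and 0.17.

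Because the subunit genes are known to share control, their promoters are shown for the chaperone and the lid gene that rose, for the catalytic gene Psmb5 and for Psmd11, whose SV5-NN4 arrays stood above both lines at its _s_at probe set. RefSeq windows on GRCm38.p6, from 250 bases before to 50 bases after the start, were found for 28 of the 35 genes, 30 windows in all. Sequences run 5′ to 3′ on the gene's strand, in lower case, with capitals for TGANNNNGC, the core of the element that Nfe2l1 binds with small Maf proteins, and for CCGGAAG, an element of ETS factors, on either strand. Psmd5 lies at chr2:34870913-34871212 (minus strand), Psmd13 at chr7:140882144-140882443 (plus), Psmb5 at chr14:54617946-54618245 (minus) and Psmd11 at chr11:80428365-80428664 (plus).
Psmd5: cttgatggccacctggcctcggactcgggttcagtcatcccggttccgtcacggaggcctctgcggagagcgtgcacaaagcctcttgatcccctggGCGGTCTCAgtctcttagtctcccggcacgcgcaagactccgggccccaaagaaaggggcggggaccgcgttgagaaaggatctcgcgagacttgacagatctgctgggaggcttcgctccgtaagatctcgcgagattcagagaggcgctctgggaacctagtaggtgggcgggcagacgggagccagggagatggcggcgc
Psmd13: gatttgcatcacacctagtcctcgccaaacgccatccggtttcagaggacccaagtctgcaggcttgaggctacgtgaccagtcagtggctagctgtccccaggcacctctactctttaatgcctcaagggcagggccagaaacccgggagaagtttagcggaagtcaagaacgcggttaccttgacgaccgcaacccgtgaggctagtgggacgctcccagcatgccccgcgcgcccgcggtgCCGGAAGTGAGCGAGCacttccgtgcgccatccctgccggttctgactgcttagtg
Psmb5: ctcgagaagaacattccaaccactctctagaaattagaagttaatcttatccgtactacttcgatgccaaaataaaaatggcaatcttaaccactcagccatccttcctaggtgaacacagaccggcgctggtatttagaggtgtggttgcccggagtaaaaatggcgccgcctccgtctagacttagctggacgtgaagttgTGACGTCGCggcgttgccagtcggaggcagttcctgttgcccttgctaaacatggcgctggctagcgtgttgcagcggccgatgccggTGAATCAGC
Psmd11: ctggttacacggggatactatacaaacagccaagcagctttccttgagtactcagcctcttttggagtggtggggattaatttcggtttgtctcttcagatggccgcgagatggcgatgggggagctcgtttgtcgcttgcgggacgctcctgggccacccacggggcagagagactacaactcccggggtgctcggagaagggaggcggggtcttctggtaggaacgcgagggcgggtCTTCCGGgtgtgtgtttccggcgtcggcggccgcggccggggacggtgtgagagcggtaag

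TGANNNNGC was found in 17 of the 30 member windows, or 56.7%, against 42.3% of the windows of measured genes and 41.3% of all windows. In Psmd13 it directly follows the ETS letters. The ETS element CCGGAAG was found in 11 windows, or 36.7%, against 14% and 8.86%, and that of nuclear respiratory factor 1 in 6, or 20%, against 7.96% and 4.60%. The GC box GGCGGG was in 73.3% of member windows (54.3% of measured genes, 35.3% of all), the CCAAT box in 36.7% (37.1%, 37.4%), the E box CACGTG in 6.67% (9.11%, 7.15%) and the E2F element TTTCGCGC in 0 windows (0.581%, 0.323%). Median GC content was 55.8% in member windows and 59% in those of measured genes. The 16 genes with TGANNNNGC had a median difference of 0.47 in SV5-NN4 against SV5 and the 12 without it 0.32. In SV5 against NIH 3T3 the same medians were 0.05 and 0.06. For CCGGAAG the medians in SV5-NN4 against SV5 were 0.35 in 10 genes with it and 0.39 in 18 without. With and without the other motifs they were 0.39 and 0.25 for the GC box and 0.43 and 0.36 for nuclear respiratory factor 1. For the CCAAT box they were 0.36 and 0.44, and for the E box 0.42 and 0.36. Matches on either strand were counted, and a match only says that these letters stand in the window.

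In SV5-NN4 against SV5, genes that serve the proteasome without belonging to the members moved less evenly. By list, 66.7% to 80% of them lay above 0, against 94.3% of the member genes. In SV5-NN4 against NIH 3T3 the lists ran from 33.3% to 100%, around the members' 82.9%. Of 32, 1 passed the test, in SV5-NN4 against SV5, where 0.864% of all probe sets passed. None passed in SV5-NN4 against NIH 3T3 or SV5 against NIH 3T3, where 1.65% and 0.0617% of all did. At these shares, a short list with no call says little about its genes. Ngly1, the glycanase that removes sugars from Nfe2l1 and so lets it become active, gave 7.07, 7.37 and 8.06 in SV5-NN4, against 8.71, 8.22 and 9.43 in SV5 and 8.24, 7.61 and 8.79 in NIH 3T3. The SV5-NN4 and SV5 arrays did not overlap, and Ngly1 fell by 1.28 ± 0.19 (adjusted p = 0.036, lower in 3 of 3 pairs). It passed in 2 of 9 fits that left out an array and did not pass without the replicate block (adjusted p = 0.81). Against NIH 3T3 it differed by -0.71 (adjusted p = 0.11). Nfe2l1 itself gave 7.77, 8.08 and 8.85 in SV5-NN4, against 7.90, 8.11 and 8.45 in SV5, an overlapping pair of lines with a difference of 0.09 (adjusted p = 0.96). Nfe2l2, its relative that answers oxidative stress, differed by -0.15 and the small Maf gene Maff by 0.43 (adjusted p = 0.26). The 7 genes of this list of transcriptional control had a median of 0.31 beside 0.01 over all genes. Of them, 1 fell and 0 rose in SV5-NN4 against SV5, against 0.555% and 0.309% of all probe sets, and none passed in the other comparisons.

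Of the 7 shuttle receptors and segregase genes, which carry ubiquitinated proteins to the proteasome, 0 passed in any comparison. The shares of all probe sets were 0.864% in SV5-NN4 against SV5, 1.65% in SV5-NN4 against NIH 3T3 and 0.0617% in SV5 against NIH 3T3. Nploc4, a cofactor of the segregase Vcp, gave 7.14, 7.36 and 7.91 in SV5-NN4, against 6.44, 6.36 and 7.06 in SV5, apart by all arrays, with a difference of 0.85 ± 0.18 (adjusted p = 0.085), and Ubqln4 differed by 0.64 (adjusted p = 0.16). The list's median was 0.12 in that comparison and 0.60 in SV5-NN4 against NIH 3T3, where Ubqln4 differed by 0.88 (adjusted p = 0.060) and Vcp by 0.85 (adjusted p = 0.072). None of the 5 core assembly chaperones passed either (median 0.20 in SV5-NN4 against SV5), among them Psmg1 at 0.55 (adjusted p = 0.29) and Psmg3 at 0.30. The deubiquitinases Uchl5 and Usp14 differed by 0.59 and 0.37, with 0 of 6 genes of their list passing (median 0.21). Of 4 activators and inhibitors, 0 passed (median 0.11), with the inhibitor Psmf1 at 0.44 and the activator Psme1 at -0.43. Of the inducible catalytic genes, Psmb8 at 4.36 to 5.03 and Psmb9 at 4.78 to 5.66 lay below the median probe set level on all 9 arrays, while Psmb10 was brighter at 5.99 to 7.36 and differed by 0.47 (adjusted p = 0.54). Ubiquitin genes were not analysed here.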

How the data were processed

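Total RNA of 3 lines, 3 arrays each, was labelled by the one-cycle procedure and hybridised to Affymetrix mouse arrays, per the labels' protocols. The deposited intensity values are on a linear scale; RMA is credited to the submitters' processing notes, and its settings, and whether all arrays were normalized together, were not stated. A change shared by most transcripts would not be seen. All 9 value columns were used and 0 left out.

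Values were taken as log2(intensity + 1). Probe sets were named by the platform annotation (20393 probe sets with 1 symbol, 691 with several, 1606 with none), and all 64 members were found by gene ID in the RefSeq table of GRCm38.p6. Differences were fitted with limma 3.58.1 in R 4.3.3 (lmFit, 1 mean per line and the replicate number as a block, 9 arrays; eBayes defaults), with Benjamini-Hochberg adjustment over 22690 probe sets, and called at an adjusted p under 0.05; fits were tested on simulated data. The pairing was part of the plan and was seen in the data, and the labels do not state it. After subtraction of line means, the 9 pairs of equal-numbered arrays of different lines correlated at 0.26 to 0.84 across probe sets. The 18 other pairs correlated at -0.73 to 0.11. Deviations within a line cancel, so the second range partly follows from the first and is not separate evidence. The number of arrays limits the precision.

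The members and lists were chosen with earlier results of these data known. Members were described by counts and medians beside those of all probe sets. Values on every array are given for Psmb5, Psmb6, Psmb7, Psmd14, called members and the 5 genes of lowest p per comparison. Other lists contribute called genes and their 2 genes of lowest p in SV5-NN4 against SV5. Nfe2l1, Nfe2l2, Vcp and Psmb8 were given outside that rule. Alternatives changed the block, the arrays fitted, scaling, the pseudocount, the filter, the variance model and how probe sets of a gene were combined, or left out 1 array.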

Additional observations from a re-analysis of the deposited data

How the results depend on the processing

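The member medians kept their direction under every alternative run and, with all arrays kept, moved beyond the spread once, to 0.53 in place of 0.38 for SV5-NN4 against NIH 3T3 over probe sets at or above the median level. Leaving out 1 array gave medians of 0.19 to 0.33 for SV5-NN4 against SV5, 0.27 to 0.48 for SV5-NN4 against NIH 3T3 and 0.01 to 0.19 for SV5 against NIH 3T3. Dropping probe sets that end in _x_at or _s_at, an alternative chosen after seeing the data, gave medians of 0.27, 0.45 and 0.16 and counts of 0, 4 and 0 in the same order, and averaging the probe sets of each gene gave 0.29, 0.45 and 0.15, beside 0.09 for SV5 against NIH 3T3 as reported.

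Counts of called members were less stable, and the causes were not tested. For SV5-NN4 against NIH 3T3, where 4 passed, 0 passed with no replicate block, 0 with only the lines compared in the fit, 1 with a pseudocount of 16 and 7 among brighter probe sets, and the share of all probe sets called moved as well, at 0.0793%, 0.0793%, 1.15% and 3.93% in that order, beside 1.65%. Leaving out an array gave 0 to 11: 11 without NIH 3T3 replicate 1 (5.46% of all), 0 without NIH 3T3 replicate 2 (0.0661%) or any SV5-NN4 array (0.0573% to 0.198%), 1 and 2 without SV5 replicates 1 and 3 (0.569% and 0.899%), and 2 without NIH 3T3 replicate 3 (0.978%). For SV5-NN4 against SV5, where 0 passed, 9 passed with only the lines compared (6.63% of all, beside 0.864%), and leaving out an array gave 0 to 5: 5 without NIH 3T3 replicate 1 (4.19%) and 1 without NIH 3T3 replicate 3 (1.4%). In SV5 against NIH 3T3, 0 passed in every alternative. With no replicate block, and so without the pairing, the 4 called members and Ngly1 lost their calls. No other call among the members and the listed genes changed. Over all probe sets, calls fell from 196 to 19 in SV5-NN4 against SV5, from 375 to 18 in SV5-NN4 against NIH 3T3 and from 14 to 1 in SV5 against NIH 3T3.

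Small differences turned sign. In SV5 against NIH 3T3, Psmd14 was -0.033 after quantile normalization and ran from -0.071 (without NIH 3T3 replicate 2) to 0.23 when 1 array was left out, and Psmb6 ran from -0.13 (without NIH 3T3 replicate 1; -0.012 without SV5 replicate 1) to 0.46. In SV5-NN4 against NIH 3T3, Psma6 ran from -0.090 to 0.032 (without SV5-NN4 replicate 1).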
